A study of Mus musculus with 7 samples.

Results

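The Rab GTPases were followed through 3 sorted mouse spleen populations on Illumina MouseRef-8 bead arrays, which measure the RNA bound to 1 bead type (a probe) at a time. Members were probes whose platform gene symbol is Rab followed by a digit and whose detection p-value, scored against the array's own negative controls, was under 0.01 on at least 2 arrays. Of 98 such probes for 65 genes on the array, 57 probes for 42 genes passed, out of 10113 probes for 7425 genes that passed in the whole series. The symbol rule also takes in genes that are named after a Rab without being one. Of the 42 genes, 37 encode GTPases and 5 encode partners (Rab11fip4, Rab11fip5, Rab3gap1, Rab3ip and Rab5if). By their textbook roles, the 37 GTPases were divided into 18 secretory members (of 27 on the array), 14 endosomal members (of 20) and 5 others (of 10).

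Naive B cells (2 samples) were sorted as B220+ CD43- from naive mice, with the agent given as control. Plasmablasts (3 samples, B220mid CD138+) and plasma cells (2 samples, B220low CD138+) were taken 3 days after lipopolysaccharide (LPS), a bacterial cell wall component that drives B cells to become antibody-secreting cells. All came from the spleens of C57Bl/6J mice at 10 weeks, with female given as the sex. The replicates are numbered, but no label ties them to separate animals, and the p-values thus reflect sample-to-sample spread that may be technical. In sorted bulk RNA, fewer cells of a type and less RNA per cell cannot be told apart.

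Rab GTPases are small switch proteins that sit on a particular membrane in their GTP-bound form and recruit the tethers, motors and fusion factors that move and dock vesicles there. Exchange factors (GEFs) load GTP, GTPase-activating proteins (GAPs) end the active state, and carrier proteins attach the lipid anchor or hold the inactive form in the cytosol. An antibody-secreting cell sends large amounts of immunoglobulin from the endoplasmic reticulum (ER) through the Golgi to the surface, the route on which the secretory Rabs act. A resting B cell takes up antigen through its receptor and processes it in endosomes, where the endosomal Rabs act.

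Each array had 8817 to 9930 of 25697 probes above background, or 34.3 to 38.6%, and arrays of the same population correlated at an r of at least 0.994 over genes. The number of arrays, 2 or 3 in a group, limits the precision. All 6 tested markers of antibody-secreting cells were above background on every plasmablast and plasma cell array, against 2 on the naive arrays. Their summed normalized signal was 7904 to 7971 on the naive arrays. It was 54766 to 56577 on the plasmablast arrays and 40438 to 43130 on the plasma cell arrays. Between plasma cells and plasmablasts 2 of the 6 were lower and none was higher (all genes, 46% and 28.7%). These were Prdm1 (mean log2 signal 9.04 in plasmablasts, 7.38 in plasma cells) and Irf4 (13.49 and 12.09). The summed normalized signal of 6 B cell markers was 83766 to 87782 on the naive arrays, 35383 to 38174 on the plasmablast arrays and 12362 to 14044 on the plasma cell arrays. The sum of 16 myeloid markers was 33151 to 39320, 2822 to 6975 and 65707 to 67164 in the same order, with 10 to 11, 5 to 6 and 14 to 15 of them above background. In the plasmablasts Lyz2, S100a8, S100a9, Hmox1 and Marco were above background on all 3 arrays, Clec4e on 2, and the other 10, Adgre1, Cd14, Itgam and Csf3r among them, on none. S100a8 rose from a mean log2 signal of 5.94 in naive B cells to 10.82 in plasmablasts (limma, adjusted p 8.82e-05). S100a9, below background on both naive arrays, was at 5.21 and 8.87, given with no test. The sum of 9 erythroid and platelet markers was 26723 to 36688 on the naive arrays, 368 to 408 on the plasmablast arrays, where none was above background, and 506 to 648 on the plasma cell arrays. Of 8 T and NK cell markers, 1 to 2 were above background on the naive arrays, 4 to 5 on the plasmablast arrays and all 8 on the plasma cell arrays. The sum of these markers did not follow that order. It was 4946 to 5571 on the naive arrays, 1957 to 2734 on the plasmablast arrays and 5243 to 5318 on the plasma cell arrays. Eif2s3y, a Y-linked gene, was above background on both naive arrays and on none of the other 5, although all samples are labelled female. The naive arrays thus differ from the others in this signal as well as in cell type, and in the comparisons with naive B cells these cannot be told apart.

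Between plasmablasts and naive B cells, 9 of the 37 Rab GTPase genes were higher, 18 were lower and 10 did not pass the test (limma, Benjamini-Hochberg adjusted p under 0.05). Over all 7425 genes tested, 35.3% were higher and 37.8% were lower, 73.1% in all. The counts of members, here and for the other comparisons, include Rab36 and Rab39, which were above background in 1 population only and so had to differ between it and another. Also included are Rab30, Rab11a and Rab7b, which were below background on every array of 1 population and were kept through the others. The secretory members split evenly, with 7 higher, 7 lower and 4 not passing, and a median log2 difference of 0.15. Of the 14 endosomal members 2 were higher and 7 lower, with a median of -0.44, and of the 5 others 4 were lower and none higher. The median over all genes was -0.02. The secretory median was 0.03 with Rab genes below background set to their bound and -0.045 with the mean over a gene's probes, so its sign is not settled. With the same bound the endosomal median was -0.33.

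Between plasma cells and naive B cells, 15 of the 37 were higher, 10 lower and 12 did not pass, against 33.3% higher, 37.8% lower and 71.1% in all among all genes. The secretory members had 9 higher and 3 lower, with a median of 0.38, and the endosomal members 4 higher and 4 lower, with a median of 0.12. The median over all genes was -0.08. With genes that were below background on every array of the lower population set to their bound, the secretory median was 0.16. The endosomal median was -0.067 with the mean over a gene's probes, and its sign is not settled either.

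Between plasma cells and plasmablasts, 19 of the 37 were higher, 7 lower and 11 did not pass, against 28.7% higher, 46% lower and 74.7% in all among all genes. The secretory members had 9 higher and 4 lower, with a median of 0.22. The endosomal members had 8 higher and 2 lower, with a median of 0.28. With genes below background set to their bound, the secretory median was 0.18 and the endosomal median 0.20. The median over all genes was -0.22. Rab39, 1 of the 7 lower genes, was below background in both populations. This last split depended on the scaling. With 75th percentile scaling in place of quantile normalization, 35.1% of the calls over all genes were higher, against 38.4%, the median over all genes moved to -0.31, and 15 Rab GTPase genes were higher and 7 lower. With cyclic loess 52.5% of the calls were higher, the median over all genes moved to -0.01, and 26 Rab GTPase genes were higher and 4 lower. The 3 comparisons share their arrays in pairs, so their values are set side by side only.

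**Figure D1:**
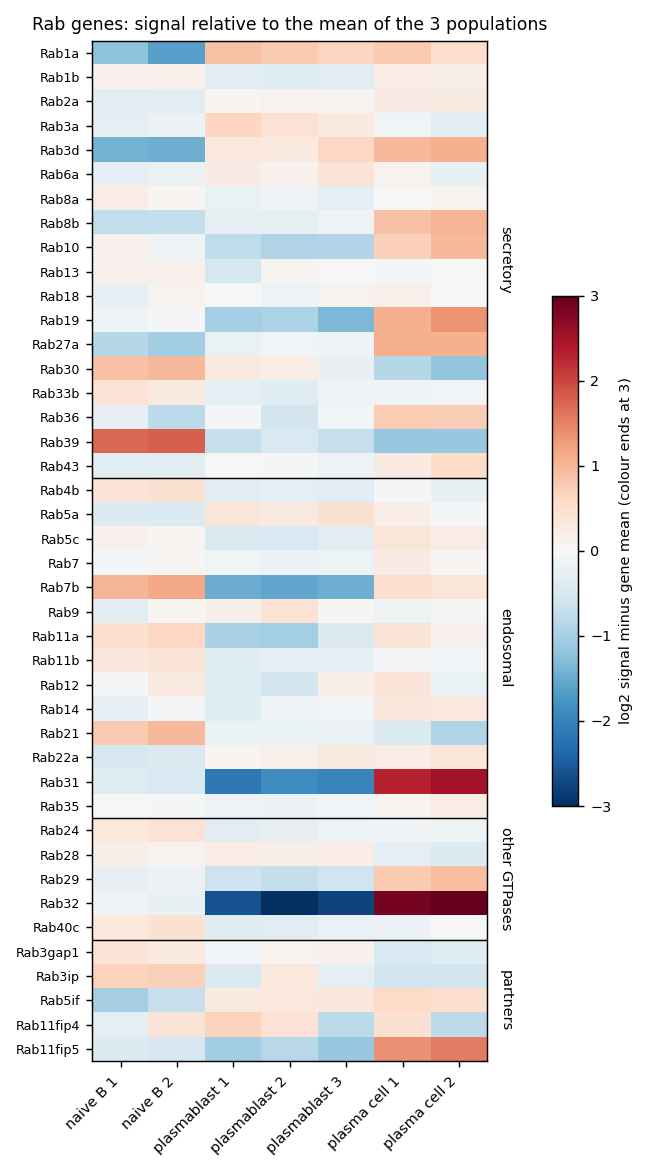
Heat map of the 37 Rab GTPase genes and 5 partners (rows, by role) on the 7 arrays (columns). Colour gives the log2 normalized signal minus the mean of the 3 population means, and ends at 3 in both directions. Rab1a and Rab3d are lowest on both naive arrays, and Rab31 and Rab32 are lowest on the 3 plasmablast arrays and highest on both plasma cell arrays.

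By the order of the population means, 10 of the 18 secretory members were lowest in naive B cells, 6 in plasmablasts and 2 in plasma cells. Of the 14 endosomal members 3 were lowest in naive B cells, 10 in plasmablasts and 1 in plasma cells. Over all 7425 genes, 31.9% were lowest in naive B cells, 29.3% in plasmablasts and 38.8% in plasma cells. These orders include neighbouring means that did not differ by the test. They also include Rab11a, Rab30, Rab36, Rab39 and Rab7b, which were kept through the populations in which they were high. Set against the naive mean, the median secretory member was at 0.20, -0.05 and 0.17 log2 units on the 3 plasmablast arrays, and the median endosomal member at -0.51, -0.58 and -0.30. On the 2 plasma cell arrays the secretory median was 0.45 and 0.34 and the endosomal median 0.17 and 0.09. All 5 arrays are set against the same naive mean, and between plasma cells and plasmablasts the secretory median was the lower one (0.22 against 0.28).

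**Figure D2:**
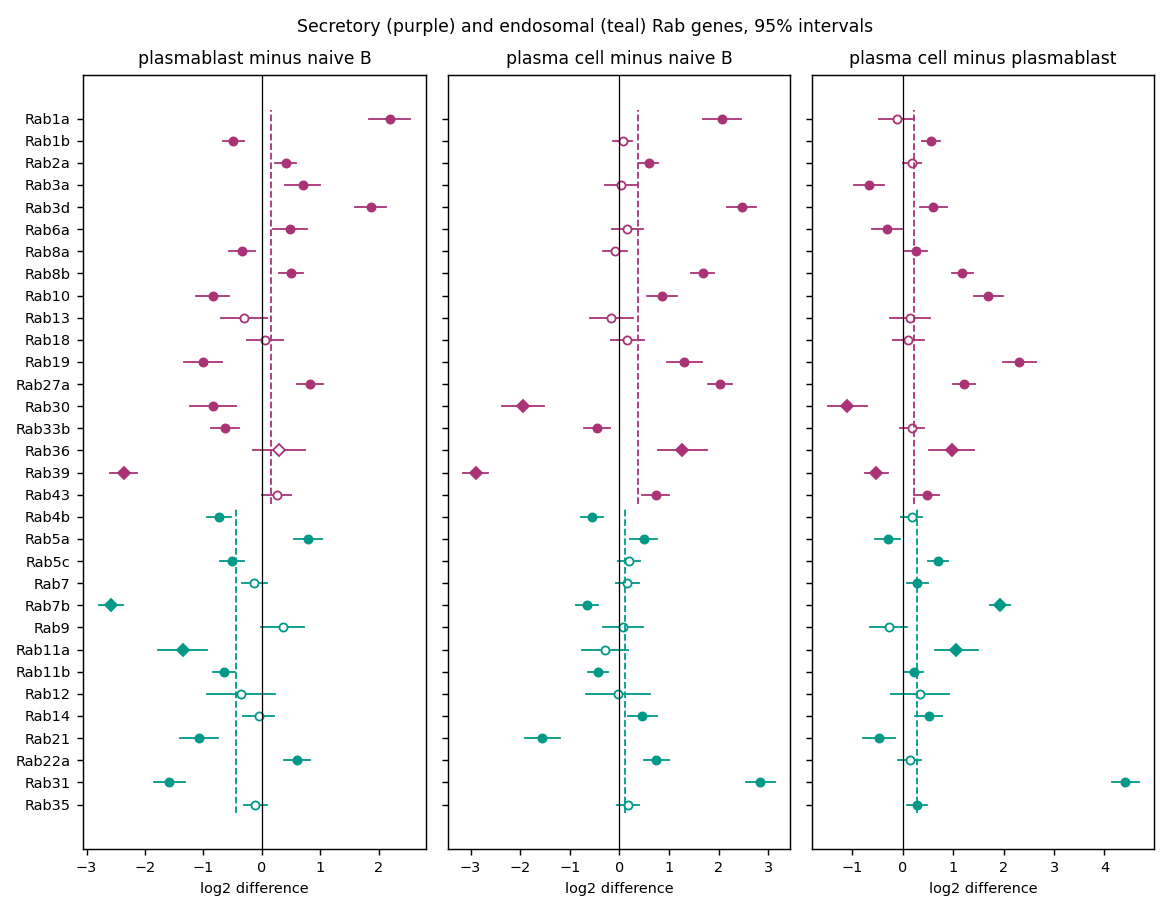
Log2 difference between populations (x axis) for the 18 secretory (purple) and 14 endosomal (teal) Rab genes, with 95% confidence intervals from limma. Filled marks passed an adjusted p of 0.05, diamonds mark genes that were below background on every array of a population in the comparison, and dashed lines mark the medians, which are 0.15 and -0.44 in the left panel.

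Among the secretory members that act between the ER and the Golgi, Rab1a changed most. Rab1a, which recruits tethers to vesicles leaving the ER, had a normalized log2 signal of 8.91 and 8.48 on the naive arrays, 11.00, 10.89 and 10.76 on the plasmablast arrays, and 10.90 and 10.62 on the plasma cell arrays. All 5 LPS arrays were above both naive arrays. The log2 difference was 2.19 ± 0.15 (SE) in plasmablasts, or 4.56-fold, with an adjusted p of 4.16e-06, and 2.06 ± 0.17 in plasma cells, or 4.18-fold. The plasma cell and plasmablast arrays overlapped, with a difference of -0.13 (95% interval -0.48 to 0.23, adjusted p 0.47).

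Rab1b, the close relative of Rab1a with the same known role, did not follow it. Its log2 signal was 10.50 and 10.53 in naive B cells, 10.05, 10.00 and 10.03 in plasmablasts and 10.60 and 10.55 in plasma cells. The plasmablast arrays lay below all the others. Rab1b fell by 0.49 on the log2 scale in plasmablasts (adjusted p 0.000591), and in plasma cells the difference from naive B cells was 0.06 (adjusted p 0.519). A further Rab1b probe gave -0.02 in plasmablasts (adjusted p 0.92), so the fall rests on the brighter probe.

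Rab2a, which acts on the ER-Golgi intermediate compartment, was higher in plasmablasts by 0.41 and in plasma cells by 0.59 on the log2 scale. Rab43, which acts in transport through the Golgi, was higher in plasma cells than in naive B cells by 0.73 (adjusted p 0.00067), and its difference in plasmablasts was 0.25 (adjusted p 0.0603). Rab18, found on the ER and on lipid droplets, passed in none of the 3 comparisons, with differences of 0.05 to 0.16.

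Upstream stretches of Rab1a and of 2 exocytic members described next, Rab3d and Rab27a, are shown here with that of Rab32, which had the widest range of the members, because the series concerns DNA methylation and these are the stretches in which it would be read. They are the 250 bases before the RefSeq start (GRCm38.p6), 5′ to 3′ on the gene's strand, with each CG in capitals. They were chosen after the values were seen, and methylation was not analysed here. The Rab1a stretch (chr11:20201162-20201411, plus strand) holds 23 CG, the Rab3d stretch (chr9:21918184-21918433, minus strand) 18, and that of Rab32 (chr10:10558208-10558457, minus strand) 5. Rab27a has 2 starts in RefSeq, with 14 CG before the first (chr9:73044560-73044809, plus strand) and 5 before the second (chr9:73063898-73064147, plus strand).
Rab1a: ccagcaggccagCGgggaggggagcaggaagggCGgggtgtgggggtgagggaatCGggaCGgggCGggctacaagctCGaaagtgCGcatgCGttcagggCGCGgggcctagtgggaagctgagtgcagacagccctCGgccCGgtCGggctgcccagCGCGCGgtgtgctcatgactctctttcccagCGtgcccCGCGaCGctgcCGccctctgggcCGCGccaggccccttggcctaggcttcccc
Rab3d: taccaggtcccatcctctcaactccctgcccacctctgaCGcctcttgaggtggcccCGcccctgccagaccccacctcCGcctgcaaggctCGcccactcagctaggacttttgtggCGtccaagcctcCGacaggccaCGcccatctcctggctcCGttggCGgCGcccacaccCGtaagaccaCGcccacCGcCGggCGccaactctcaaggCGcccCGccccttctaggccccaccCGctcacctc
Rab27a, first start: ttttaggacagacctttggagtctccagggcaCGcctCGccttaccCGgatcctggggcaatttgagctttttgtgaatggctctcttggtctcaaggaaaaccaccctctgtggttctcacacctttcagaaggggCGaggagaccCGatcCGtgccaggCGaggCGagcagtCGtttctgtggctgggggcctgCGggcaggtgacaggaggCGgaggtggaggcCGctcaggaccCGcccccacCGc
Rab27a, second start: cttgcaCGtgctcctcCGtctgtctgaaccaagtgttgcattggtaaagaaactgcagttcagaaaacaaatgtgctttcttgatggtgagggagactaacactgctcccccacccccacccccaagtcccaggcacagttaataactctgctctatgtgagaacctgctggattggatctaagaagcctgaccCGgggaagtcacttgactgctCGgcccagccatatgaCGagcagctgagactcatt
Rab32: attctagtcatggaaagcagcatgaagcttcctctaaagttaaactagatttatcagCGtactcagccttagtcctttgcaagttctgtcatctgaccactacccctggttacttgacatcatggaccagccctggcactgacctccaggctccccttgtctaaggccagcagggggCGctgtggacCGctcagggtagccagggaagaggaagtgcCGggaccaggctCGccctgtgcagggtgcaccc
Over 32851 RefSeq start windows the median count of CG in these 250 bases was 6, with a range of 0 to 56. Over the 39 windows of the 32 Rab GTPase members with an entry the median was 18, with a range of 2 to 39. The 2 sets are unlike, since the 32851 windows cover 27025 genes, while 7425 genes passed the detection rule. The secretory windows had a median of 18 and the endosomal windows one of 20.5. Rab32 and the second Rab27a start lie below the other printed stretches and near the median of all windows.

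Of the 7 exocytic members, which act on Golgi-derived vesicles near the surface, 4 were higher and 2 lower in plasmablasts than in naive B cells, and 4 were higher and none lower in plasma cells. Of all genes 35.3% were higher and 37.8% lower in plasmablasts, and 33.3% and 37.8% in plasma cells. Rab3d, which marks secretory granules in exocrine cells, had a log2 signal of 8.07 and 8.03 in naive B cells, 9.82, 9.80 and 10.12 in plasmablasts, and 10.48 and 10.56 in plasma cells. The 3 populations did not overlap. The difference from naive B cells was 1.86 ± 0.11 (SE) in plasmablasts, or 3.63-fold (adjusted p 2.2e-06), and 2.46 ± 0.13 in plasma cells, or 5.52-fold. Rab3a, its relative at synaptic vesicles, was 8.56 and 8.68 in naive B cells, 9.50, 9.30 and 9.15 in plasmablasts and 8.77 and 8.52 in plasma cells. It was higher in plasmablasts than in both other populations, by 0.70 against naive B cells (adjusted p 0.00128), while plasma cells and naive B cells overlapped.

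Rab27a, which docks lysosome-related granules at the plasma membrane, followed the order of Rab3d. Its log2 signal was 9.31 and 9.12 in naive B cells, 9.96, 10.09 and 10.07 in plasmablasts, and 11.27 and 11.23 in plasma cells. The difference from naive B cells was 0.82 ± 0.09 (SE) in plasmablasts (adjusted p 8.44e-05) and 2.03 ± 0.10 in plasma cells, or 4.09-fold (adjusted p 1.02e-06). Plasma cells were higher than plasmablasts by 1.21, with no overlap between any pair of populations.

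Rab8b and Rab8a, which carry Golgi-derived vesicles to the surface, diverged. Rab8b was 11.50 and 11.51 in naive B cells, 11.99, 11.94 and 12.09 in plasmablasts and 13.11 and 13.25 in plasma cells. It was higher in plasma cells than in naive B cells by 1.68 ± 0.10 (SE), or 3.19-fold, and a further probe gave 1.59. Rab8a was 13.15 and 12.98, then 12.73, 12.80 and 12.64, then 12.93 and 13.02. Rab8a was lower in plasmablasts by 0.34 (log2 -0.34, adjusted p 0.0106), a call lost with 75th percentile scaling (-0.07) and without naive replicate 1 (-0.26, adjusted p 0.0899). A further Rab8a probe gave -0.38 (adjusted p 0.0073) for the same comparison.

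Rab10, which serves vesicles bound for the plasma membrane in several cell types, moved in opposite directions in the 2 LPS populations. Its log2 signal was 9.17 and 8.90 in naive B cells, 8.29, 8.14 and 8.15 in plasmablasts, and 9.76 and 10.02 in plasma cells, with no overlap. It was lower by 0.84 in plasmablasts (log2 -0.84, adjusted p 0.000321) and higher by 0.86 in plasma cells. A further Rab10 probe gave 0.01 in plasmablasts (adjusted p 0.95) and 0.94 in plasma cells, so the gain in plasma cells is on both probes and the fall in plasmablasts on 1. Rab13, known from epithelial junctions, passed in no comparison and was close to background on all arrays.

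**Figure D3:**
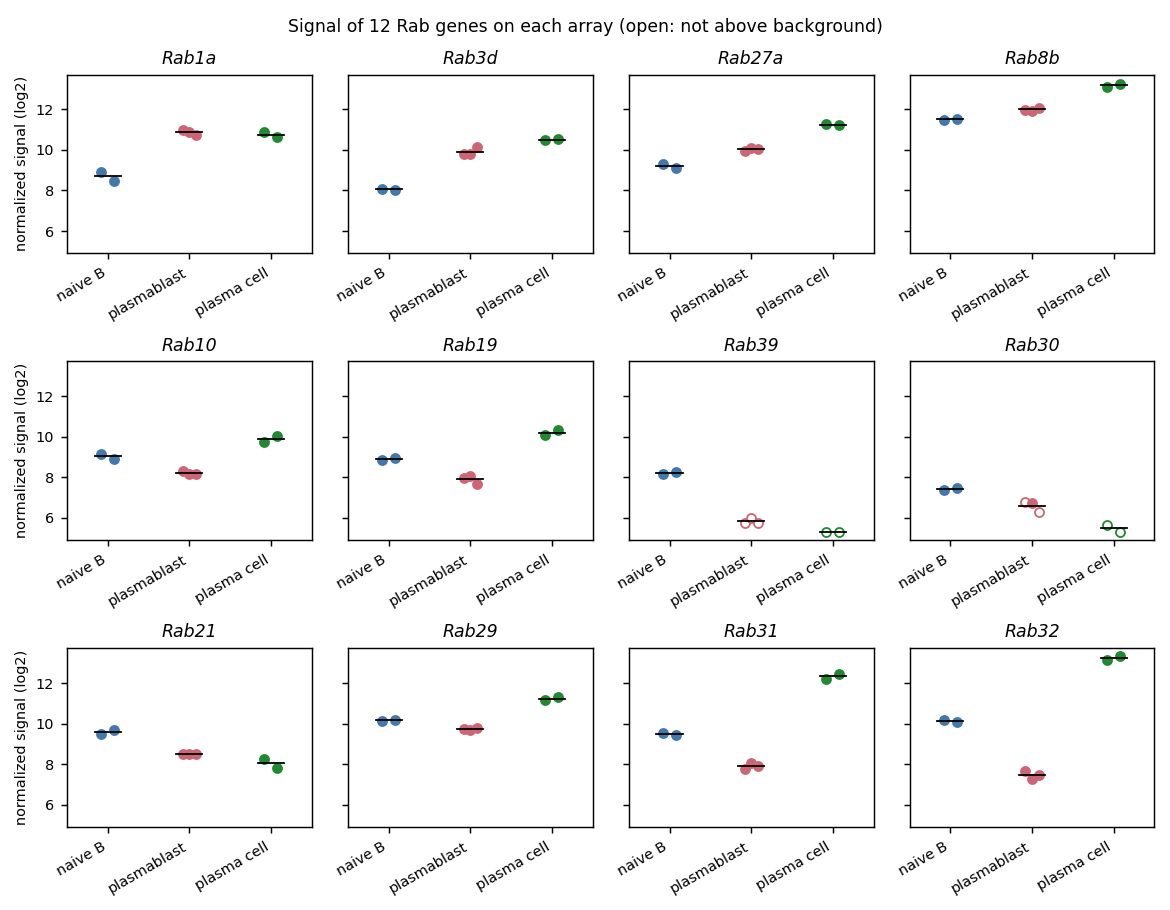
Normalized signal (log2, y axis) of 12 Rab genes on each array. Points are arrays, lines are population means, and open points were not above background. Rab27a lies at 9.12 to 9.31, 9.96 to 10.09 and 11.23 to 11.27 in the 3 populations, while Rab10, Rab19, Rab29, Rab31 and Rab32 are lowest in plasmablasts.

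Of the 6 Golgi members, 1 was higher and 4 lower in plasmablasts than in naive B cells (all genes, 35.3% and 37.8%), and 2 were higher and 3 lower in plasma cells (all genes, 33.3% and 37.8%). Rab39 and Rab36 were above background in 1 population only. Without them, a count added after the values were seen, 1 of 4 was higher and 3 lower in plasmablasts, and 1 higher and 2 lower in plasma cells. Both counts of lower members still include Rab30, which is given below with no test. Rab39, a little studied Rab with links to endocytosis and phagosomes, was above background only in naive B cells, at log2 8.17 and 8.24. It was 5.77, 6.00 and 5.76 on the plasmablast arrays and 5.31 and 5.32 on the plasma cell arrays, all below background. Against the lowest detected signal of those arrays it was at least 2.90-fold lower in plasmablasts and at least 3.80-fold lower in plasma cells. These folds are a description with no test, since Rab39 was kept for its naive signal. Here and below, a fold given as at least so many compares the higher population's mean with that detection limit.

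Rab30, a Golgi Rab, was 7.37 and 7.48 in naive B cells, 6.76, 6.72 and 6.28 in plasmablasts, where 1 of 3 arrays was above background, and 5.65 and 5.31 in plasma cells, both below background. The naive arrays lay above all others. Its naive arrays alone would have kept it, so its log2 difference of -0.84 in plasmablasts is given with no test. It was at least 2.21-fold lower in plasma cells. Rab33b, which also recruits autophagy factors, was lower in both, by -0.63 and -0.45 on the log2 scale. The erythroid and platelet marker sum was also highest on the naive arrays, at 26723 to 36688, and its part in these results was not tested.

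Rab19, another Golgi-associated Rab, was 8.86 and 8.95 in naive B cells, 7.98, 8.05 and 7.65 in plasmablasts, and 10.07 and 10.35 in plasma cells. Plasma cells were higher than plasmablasts by 2.31 ± 0.14 (SE), or 4.97-fold (adjusted p 2.95e-06), and than naive B cells by 1.30. A further Rab19 probe gave 2.05 and 1.18 for the same comparisons. Rab36, a Golgi Rab linked to the placing of late endosomes, was above background on the plasma cell arrays only, at 6.57 and 6.55, and at least 1.02-fold higher there than in naive B cells. Rab6a, which moves vesicles within the Golgi and back to the ER, was higher in plasmablasts by 0.48 (adjusted p 0.00907). A dimmer Rab6a probe, above background on 2 arrays, gave -0.76 (adjusted p 0.0097) for the same comparison, so the direction for Rab6a depends on the probe.

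Among early endosomal members, Rab5a and Rab5c, which drive fusion of incoming vesicles with early endosomes, went apart in plasmablasts. Rab5a was 9.98 and 9.94 in naive B cells, 10.76, 10.65 and 10.84 in plasmablasts and 10.57 and 10.32 in plasma cells, and was higher than naive by 0.79 and 0.49. Rab5c was 12.51 and 12.48, then 11.96, 11.93 and 12.05, then 12.74 and 12.62. Rab5c was lower in plasmablasts (log2 -0.51, adjusted p 0.000823) and did not pass in plasma cells against naive B cells (0.19, adjusted p 0.109). A further Rab5a probe gave 1.01 and 0.76.

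Rab21, which sorts integrins and other cargo at early endosomes, was 9.50 and 9.69 in naive B cells, 8.51, 8.53 and 8.52 in plasmablasts, and 8.28 and 7.81 in plasma cells. It was lower by -1.08 ± 0.14 (SE) in plasmablasts and -1.55 ± 0.15 in plasma cells (adjusted p 0.000165 and 3.78e-05). It was the endosomal member with the largest fall in plasma cells. The difference between plasma cells and plasmablasts, -0.48, no longer passed with plasma cell replicate 2 left out (-0.24, adjusted p 0.0907) or with cyclic loess (-0.20). Rab22a, which acts between early and recycling endosomes, was higher in both LPS populations, by 0.60 and 0.74, and its further probe gave 0.64 and 0.85.

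Rab31, which acts between the trans-Golgi network and endosomes, had a log2 signal of 9.54 and 9.47 in naive B cells, 7.77, 8.07 and 7.92 in plasmablasts, and 12.22 and 12.44 in plasma cells. Relative to naive B cells it was 3.00-fold lower in plasmablasts (log2 -1.58 ± 0.11, SE, adjusted p 5.49e-06) and 7.13-fold higher in plasma cells (2.83 ± 0.13, adjusted p 5.08e-07). Plasma cells were 21.4-fold above plasmablasts, the largest such difference among the endosomal members.

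Rab32, grouped among the others because it serves lysosome-related organelles and mitochondria, had the same order with a wider range. It was 10.16 and 10.06 in naive B cells, 7.67, 7.26 and 7.49 in plasmablasts, and 13.15 and 13.32 in plasma cells. It was 6.24-fold lower in plasmablasts (adjusted p 6.58e-07) and 8.72-fold higher in plasma cells than in naive B cells, and 54.4-fold apart between plasma cells and plasmablasts. Rab29, a relative of Rab32 that acts at the trans-Golgi network and lysosomes, was 10.13 and 10.19, then 9.76, 9.67 and 9.77, then 11.16 and 11.30. It was lower in plasmablasts (log2 -0.43) and 2.10-fold higher in plasma cells.

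The sum of the 16 myeloid markers was highest in plasma cells, at 65707 to 67164, and lowest in plasmablasts, at 2822 to 6975, the order of Rab31, Rab32, Rab29, Rab10 and Rab19. By their means 10 of the 37 GTPases had this order, also Rab14, Rab35, Rab5c, Rab7 and Rab1b. The share of all genes with this order was not counted. For Rab10 the further probe gave no fall in plasmablasts (0.01, adjusted p 0.95), and nor did that for Rab1b (-0.02, adjusted p 0.92). For Rab7 the other 2 probes gave -0.38 and -0.37 between plasma cells and plasmablasts. In the marker sum, the upper part of this order rests on Lyz2. Without Lyz2, as an alternative added after the values were seen, the sum of the other 15 was 28545 to 35310 in naive B cells, 2035 to 6011 in plasmablasts and 24406 to 26285 in plasma cells. Lyz2, the myeloid lysozyme, was at log2 11.97 and 12.17 in naive B cells, 10.48, 9.62 and 9.91 in plasmablasts, and 15.32 and 15.33 in plasma cells. Between plasma cells and plasmablasts 14 of the 16 myeloid markers were higher and none was lower (all genes, 28.7% and 46%). Itgam, Csf3r and Mpo were above background in plasma cells only and so had to differ. By their means, 7 of the 16 (Lyz2, Itgam, Cd14, Adgre1, Csf3r, Hmox1 and Marco) were highest in plasma cells and lowest in plasmablasts. The 5 markers C1qa, C1qb, C1qc, Vcam1 and Fcna were highest in naive B cells, and the 4 markers S100a8, S100a9, Mpo and Clec4e were highest in plasma cells and lowest in naive B cells. Itgam, Csf3r and Mpo were below background on all naive and plasmablast arrays, so their lowest population is not settled. The part of myeloid RNA in the values of these Rab genes was not tested.

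**Figure D4:**
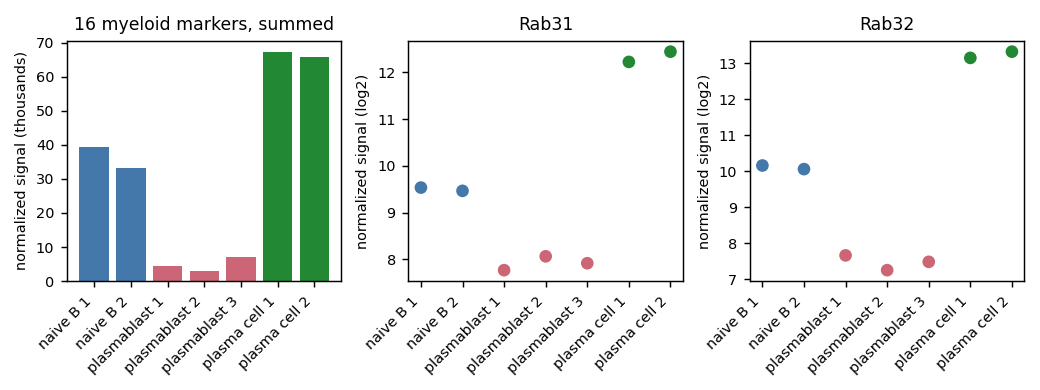
Summed normalized signal of 16 myeloid markers (left, in units of 1000, bars from 0) beside the log2 signal of Rab31 and Rab32 (middle and right) on each array, coloured by population. The marker sum is 2822 to 6975 on the plasmablast arrays and 65707 to 67164 on the plasma cell arrays, and both Rab genes are lowest on the former and highest on the latter. Without Lyz2 the marker sum is higher in naive B cells, at 28545 to 35310, than in plasma cells, at 24406 to 26285.

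The recycling members, which return endosomal cargo to the surface, had none higher and 3 of 6 lower in plasmablasts than in naive B cells, against 35.3% and 37.8% of all genes. Rab11a, which marks the recycling endosome, was 6.91 and 7.03 in naive B cells and 6.81 and 6.53 in plasma cells, and 5.45, 5.39 and 5.99 in plasmablasts, all below background. It was at least 1.23-fold lower in plasmablasts than in naive B cells. That fold is given with no test, since Rab11a was kept for its signal in the other populations. The count of lower recycling members includes Rab11a. Its relative Rab11b was 13.63 and 13.67, then 12.93, 13.05 and 13.02, then 13.22 and 13.21. Rab11b was lower in plasmablasts by -0.65 and in plasma cells by -0.43 on the log2 scale. The plasmablast arrays were the lowest for both genes.

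Rab4b, which serves fast recycling, was lower in both LPS populations (log2 -0.74 and -0.56). Rab14, which acts between the Golgi and endosomes, was higher in plasma cells than in naive B cells by 0.45 (adjusted p 0.012) and did not pass in plasmablasts (-0.06). Rab35, at the surface and on recycling endosomes, passed between plasma cells and plasmablasts only, by 0.28 (adjusted p 0.0186). Rab12 passed in none of the 3 comparisons, and its signal was near background, at log2 6.37 to 7.31.

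Among late endosomal members, Rab7, the Rab of late endosomes and lysosomes, was 11.97 and 12.03 in naive B cells, 11.92, 11.84 and 11.84 in plasmablasts and 12.26 and 12.05 in plasma cells. It passed between plasma cells and plasmablasts only, at 0.29 (adjusted p 0.0214), while its other 2 probes gave -0.38 and -0.37 (adjusted p 0.0083 and 0.016). The direction for Rab7 depends on the probe. Rab7b, which acts between late endosomes and the trans-Golgi network, was 7.40 and 7.53 in naive B cells, below background in plasmablasts at 4.90, 4.82 and 4.93, and 6.87 and 6.75 in plasma cells. It was at least 1.73-fold lower in plasmablasts and lower in plasma cells (log2 -0.65). The plasmablast fold is given with no test, since Rab7b was kept for its signal in the other populations. Rab9, which returns receptors from late endosomes to the Golgi, passed in no comparison, although a dimmer probe gave -0.76 in plasma cells (adjusted p 0.00061).

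**Figure D5:**
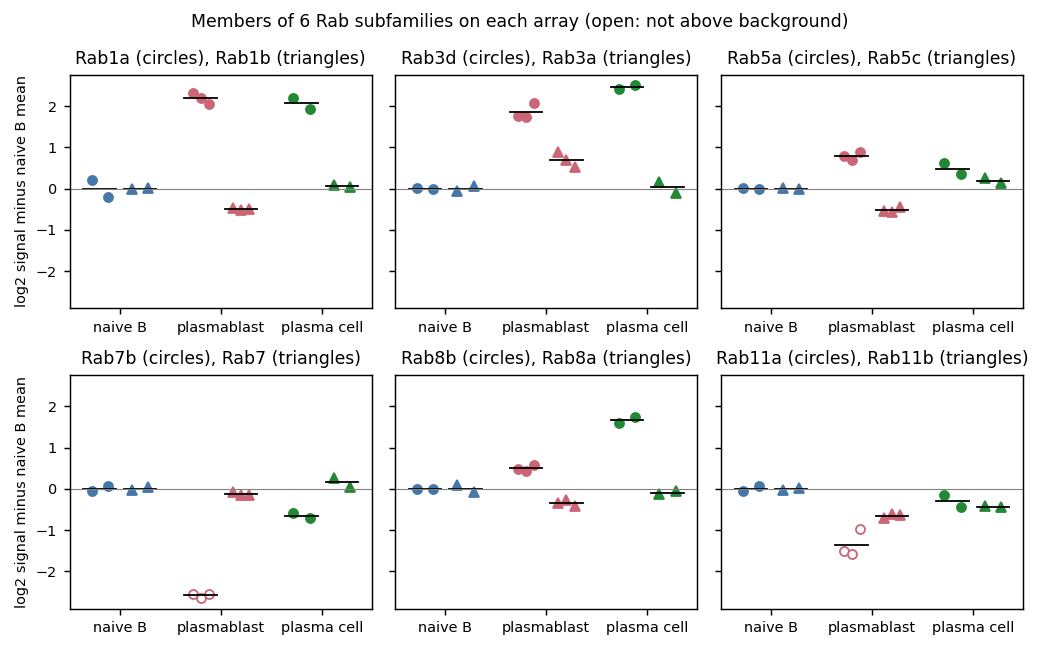
Log2 signal minus the gene's naive B cell mean (y axis) for both measured members of 6 Rab subfamilies on each array. Circles and triangles are the 2 members, lines are population means, and open marks were not above background. The plasmablast arrays of Rab1a lie at 10.76 to 11.00 and those of Rab1b at 10.00 to 10.05 on the signal scale, above and below their naive arrays.

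In plasmablasts, 1 member was higher than in naive B cells and its relative lower in 3 of the 6 pairs drawn, Rab1a and Rab1b, Rab5a and Rab5c, and Rab8b and Rab8a. For 2 of these pairs the lower call has a limit. The further Rab1b probe gave -0.02 (adjusted p 0.92). The Rab8a call was lost with 75th percentile scaling and without naive replicate 1, while its further probe gave -0.38 (adjusted p 0.0073). Both members were higher for Rab3d and Rab3a, and both lower for Rab11a and Rab11b. Rab7b was lower while Rab7 did not pass. Rab11a and Rab7b were below background on every plasmablast array. Except for Rab5a and Rab5c, added after their values were seen, the pairs hold a member picked for its size of change in these data. Of all genes 35.3% were higher and 37.8% lower, and the share of opposite pairs was not counted. The counts of pairs are a description. The bead probe of one gene cannot be set against that of another in level, so only the differences between populations are compared here.

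Of the other GTPases, Rab24 and Rab40c were lower in both LPS populations. Rab24, linked to autophagy, had log2 differences of -0.62 and -0.50, with 2 further probes at -0.70 and -0.87 in plasmablasts. Rab40c, part of a ubiquitin ligase, had -0.68 and -0.48. Rab28, a ciliary Rab, was lower in plasma cells than in naive B cells (log2 -0.49) and than in plasmablasts (-0.56), and did not pass in plasmablasts (0.07).

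The partners were few but some changed widely. Rab5if, a small protein named as an interactor of Rab5, was 9.94 and 10.25 in naive B cells, 11.19, 11.24 and 11.27 in plasmablasts, and 11.53 and 11.41 in plasma cells. It was higher by 1.14 in plasmablasts and 1.37 in plasma cells (adjusted p 2.7e-05 and 1.88e-05). Rab11fip5, an effector of Rab11, was above background only in plasma cells, at 8.05 and 8.23, and at least 3.06-fold higher there than in naive B cells, and at least 2.77-fold higher than in plasmablasts. Rab3ip, an exchange factor for Rab8, was above background only in naive B cells, at 6.71 and 6.73, and at least 1.35-fold lower in plasma cells. Rab3gap1, a subunit of the Rab3 GAP that also activates Rab18, was lower in both LPS populations (log2 -0.30 and -0.76).

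Other Rab genes did not meet the detection rule. The 20 such GTPase genes were Rab2b, Rab3b, Rab3c, Rab4a, Rab6b, Rab9b, Rab15, Rab17, Rab20, Rab23, Rab25, Rab27b, Rab33a, Rab34, Rab37, Rab38, Rab39b, Rab40b, Rab42 and Rab44, and the 3 such partners were Rab11fip2, Rab11fip3 and Rab3il1. Rab4a and Rab11fip2 were above background on 1 array each, with lowest detection p-values of 0.00627 and 0.00376, and Rab38 was the nearest of the rest at 0.0138. Just inside the rule, Rab36, Rab39, Rab11fip5 and Rab3ip were above background on 2 arrays each and Rab30 on 3. Because such members passed through the population in which they were high, they had to differ between populations. Of the 37 GTPases, 30 were above background on all 7 arrays.

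Lists of the genes that load, switch off and carry Rabs were also counted, and some include genes above background in 1 population only. Of 20 exchange factors tested, 5 were higher and 9 lower in plasmablasts than in naive B cells (all genes, 35.3% and 37.8%), and 4 and 5 in plasma cells (all genes, 33.3% and 37.8%). Dennd1c, an exchange factor for Rab35, was at log2 11.16 and 11.21 in naive B cells, 8.93, 9.29 and 9.13 in plasmablasts and 10.22 and 10.44 in plasma cells, and fell by 2.07 in plasmablasts (log2 -2.07). Dennd6b was lower in both (-1.22 and -2.43). Dennd5b, which acts on Rab39 in biochemical assays, was higher in plasmablasts only among comparisons with naive B cells (1.57, against -0.21 in plasma cells with an adjusted p of 0.2). Rin2, an exchange factor for Rab5, was 6.96 and 6.60 in naive B cells, below background in plasmablasts, and 9.91 and 10.03 in plasma cells, at least 9.85-fold above plasmablasts.

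Of 10 subunits tested of TRAPP, the complex that activates Rab1 and Rab11, 2 were higher and 5 lower in plasmablasts (all genes, 35.3% and 37.8%), and 3 and 4 in plasma cells (all genes, 33.3% and 37.8%). Trappc5 was lower in both (log2 -1.44 and -1.50), and Trappc13 was higher in both (0.84 and 0.70). Of 5 carrier genes, Gdi2, which extracts inactive Rabs from membranes, was lower in both (-0.77 and -0.90). Rabggta and Rabggtb, the subunits of the enzyme that attaches the lipid anchor, were higher in plasmablasts than in naive B cells (0.56 and 0.43) and lower in plasma cells than in plasmablasts (-0.82 and -0.60).

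Of 23 GAPs tested, 7 were higher and 10 lower in plasmablasts (all genes, 35.3% and 37.8%), and 8 and 5 in plasma cells (all genes, 33.3% and 37.8%). Tbc1d10c (carabin), a lymphocyte GAP, was 13.25 and 13.47 in naive B cells, 8.71, 9.05 and 8.61 in plasmablasts, and 7.89 and 8.05 in plasma cells. It fell by 4.57 and 5.40 on the log2 scale. Evi5, a reported GAP for Rab11, was 7.96 and 8.17, then 11.77, 11.57 and 11.98, then 11.29 and 11.24, and was higher by 3.71 and 3.20. Tbc1d2b, a GAP for Rab22, was below background in plasmablasts and 10.86 and 11.13 in plasma cells, at least 20.0-fold above them.

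Effectors of the secretory Rabs had 6 of 11 higher and 2 lower in plasmablasts (all genes, 35.3% and 37.8%), and 5 higher and 1 lower in plasma cells (all genes, 33.3% and 37.8%). Between plasma cells and plasmablasts 2 were higher and 7 lower (all genes, 28.7% and 46%). Uso1 (p115), the tether that Rab1 recruits, was 8.31 and 8.53 in naive B cells, 10.92, 11.11 and 10.76 in plasmablasts, and 10.06 and 9.98 in plasma cells. It was higher by 2.51 and 1.60, and no population overlapped another. The Golgi stacking protein Gorasp2 was higher by 1.16 and 0.39, and Golga2 (GM130), a further Rab1 partner, by 1.00 and 0.83. Sytl3, a Rab27 effector, was at least 2.40-fold higher in plasmablasts. Exoc6, an exocyst subunit bound by Rab11, fell by 1.80 in plasmablasts, and Unc13d (Munc13-4), a Rab27 effector in granule release, fell by 1.38. These are the 2 lower in plasmablasts. Exoc6 was counted on this list although Rab11 is grouped here with the endosomal members.

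Of the genes listed as effectors of the endosomal Rabs, 3 of 13 were higher and 5 lower in plasmablasts (all genes, 35.3% and 37.8%). In plasma cells 6 were higher and 4 lower (all genes, 33.3% and 37.8%). Rabep2, a Rab5 effector, was 10.40 and 10.24 in naive B cells, 8.11, 8.48 and 8.24 in plasmablasts, and 8.13 and 8.11 in plasma cells, and fell by 2.04 and 2.20. Rilp, which links Rab7 to dynein, was above background only in plasma cells, at 9.56 and 9.64, at least 8.40-fold above naive B cells. Rilpl2 was higher in both LPS populations (log2 1.99 and 0.96). Rilpl1 and Rilpl2 are among the 3 higher in plasmablasts. They are named after Rilp, and whether they bind the endosomal members was not checked. Fyco1, which links Rab7 to kinesin, was at least 2.12-fold lower in plasmablasts.

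RefSeq start windows (250 bases before to 50 after the start) were searched on both strands for motifs of 2 pathways that act on secretory and lysosomal genes. The motif CCACGT, the core bound by XBP1, was in 5 of 39 member windows, or 12.8%, and in 8.31% of all 32851 windows. It was in 1 of 20 secretory and 1 of 14 endosomal windows. Here and for the motifs below, all windows include genes that did not pass the detection rule, unlike the member windows. The unfolded protein response element TGACGTGG was in none of the 39 and in 0.676% of all windows. The ER stress element, CCAAT followed after 9 bases by CCACG, was in none of the 39 and in 0.119% of all. These letters are not in these windows, and nothing follows for the factors.

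The motif CACGTGAC, part of the element bound by TFEB and its relatives in lysosomal genes, was in 3 of 39 member windows, or 7.69%, and in 2.25% of all. All 3 windows, those of Rab21, Rab24 and Rab5a, hold it on both strands as a palindrome of 10 bases, which 0.326% of all windows hold. Its central letters CACGT are shared with the XBP1 core. The 3 sites are shown because one sequence is shared by genes whose RNA went different ways, with Rab21 and Rab24 lower and Rab5a higher in both LPS populations. Capitals mark the palindrome, which begins at base -32 in Rab21 (chr10:115315604-115315633, minus strand), at base 1 in Rab24 (chr13:55321961-55321990, minus strand) and at base -97 in Rab5a (chr17:53479127-53479156, plus strand), counted from the start.
Rab21: gcccaccgcgGTCACGTGACgaggggtgtg
Rab24: cggcgcccgcGTCACGTGACcgggcgtccc
Rab5a: acccggggatGTCACGTGACttcggccccg
The palindrome was picked after the sites were seen, and a match is a description of the sequence. Rab7b, Rab18, Rab2a, Rab30 and Rab36 had no entry in the table.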

How the data were processed

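Gene expression was measured in 7 samples of sorted spleen cells, 1 Illumina array each. The deposited scanner table holds an intensity per probe and array, not normalized between arrays, and a detection p-value scored per the file headers. GenomeStudio 2011.1 is the tool named in the submitters' processing notes. A second deposited table holds an intensity that the authors had normalized, within 0.0119 log2 units of the quantile-normalized scanner values. It served as an alternative.

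The limma package (3.58.1, under R 4.3.3) did the rest. Its neqc function corrected background from the detection p-values by normexp, added an offset of 16, quantile normalized and took log2 of the deposited intensity. Probes with a detection p-value under 0.01 on at least 2 arrays were kept, and the probe with the highest mean stood for its gene. Of 25697 probes 23978 had 1 gene symbol in the platform annotation, and 23962 of these were updated by Entrez number. The lmFit and eBayes functions fitted 3 population means on all 7 arrays, with 4 residual degrees of freedom. P-values were adjusted (Benjamini-Hochberg) over 7425 genes, with a threshold of 0.05. The script was tested on simulated data.

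Values for each array are given for GTPases and partners called with no overlap and a log2 difference of at least 1 in some comparison, and for their subfamily relatives. Rab5a and Rab5c were added after their values were seen. Of the lists of exchange factors, TRAPP subunits, GAPs, carriers and effectors, members among the 4 largest changes are named, with Golga2, Gorasp2, Rabggta and Rabggtb as further examples. Members, lists and roles were chosen with earlier results of these data known. Deviations of same-numbered samples from their population means had an r of -0.03 to 0.17. In a group of 2 arrays the deviations mirror each other, so these values cannot exclude a pairing. No pairing was used in the main fit. Alternatives changed the scaling, offset, probe filter, probe choice and replicates. Promoter sequences are RefSeq's (GRCm38.p6), matched by symbol. Protein sequences and DNA methylation were not used here.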

Additional observations from a re-analysis of the deposited data

How the results depend on the processing

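With 2 or 3 arrays a group, small differences rest on single arrays, and dim genes have only a bound. For the 25 Rab genes given by array, 75 differences were recomputed under 15 alternatives each, for Rab5a and Rab5c as an addition after seeing the data. Of 1125 values, 1082 stayed on the same side of the threshold with the same direction, 32 lost the call, 10 gained one and 1 changed sign. The change of sign was Rab7 between plasma cells and plasmablasts with the mean over probes (-0.15). The lost calls were Rab8a, Rab11b, Rab7, Rab21 and, between plasma cells and plasmablasts, Rab5a (-0.30, and -0.11 with loess), all at differences of under 0.5. Between plasmablasts and naive B cells, the secretory median of 0.15 became 0.0047 with no filter on dim probes and -0.045 with the mean over probes, and ran from 0.07 to 0.19 with 1 replicate left out. The endosomal median of -0.44 became -0.32 with 75th percentile scaling, -0.083 with no filter and -0.57 with the replicate block, and ran from -0.56 (without plasmablast replicate 3) to -0.35. Between plasma cells and naive B cells, the secretory median of 0.38 became 0.55 with cyclic loess and 0.16 with no filter, and ran from 0.34 to 0.46. The endosomal median of 0.12 became 0.17 with 75th percentile scaling, 0.33 with loess, 0.040 with no filter and -0.067 with the mean over probes, and ran from 0.0046 (without naive replicate 1) to 0.17. Between plasma cells and plasmablasts, the 7 lower genes became 4 with loess, and 4 to 7 with 1 replicate left out, 4 without plasma cell replicate 2. The secretory median of 0.22 became 0.13 with 75th percentile scaling, 0.47 with loess, 0.17 with no filter and 0.27 with the mean over probes, and ran from 0.19 to 0.28. The endosomal median of 0.28 became 0.19 with 75th percentile scaling, 0.52 with loess and 0.20 with no filter, and ran from 0.21 to 0.34. The cause of these shifts was not tested, except that no filter adds dim genes. Loess moved the median of all genes from -0.08 to 0.09 for plasma cells less naive B cells, and from -0.22 to -0.01 for plasma cells less plasmablasts. Whether the replicate numbers pair the samples is not known. With the replicate block, 10 Rab GTPases were higher and 19 lower in plasmablasts, 15 and 10 in plasma cells, and 17 and 6 between them.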
